A study of Mus musculus with 12 samples.

Results

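The genes described here are Gpnmb, Trem2, Tyrobp, Syngr1 and Emp1, a small set named after its use as a signature of macrophages in scarred tissue. They were picked by symbol from the deposited count table, 5 of 52636 genes, and each symbol matched 1 row. Their levels across these libraries were known when they were picked, so the levels in bleomycin against saline are given as a description. Members that passed the fit over all genes in those contrasts are named, but nothing is read from their passing. Bulk RNA was counted in mouse lung Cx3cr1+ macrophages, with 4 libraries in each of 3 groups: saline-treated, labelled IL4Ra WT (saline WT); bleomycin-treated, labelled IL4Ra WT (bleomycin WT); and bleomycin-treated, labelled IL4Ra KO (bleomycin KO). Bleomycin is a lung-injuring drug that leads to fibrosis in mice, and IL4Ra is a receptor chain for the cytokines IL-4 and IL-13. The labels give no age, sex, strain, time after treatment or cell type in which the deletion was made, and all 12 libraries share the Cx3cr1+ selection named in the series title. None of the 12 libraries is a saline library labelled KO, and separate animals are not named in the labels. P-values below therefore reflect library-to-library spread alone, which may be technical.

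TREM2 is a surface receptor of macrophages that senses lipids, lipoproteins and cell debris. It has almost no signalling tail of its own and depends on TYROBP, also called DAP12, a transmembrane adaptor whose cytoplasmic motif recruits the kinase SYK. GPNMB is a type I transmembrane glycoprotein of lysosome-rich macrophages whose transcription is known to respond to the MiT/TFE factors. SYNGR1 is a synaptogyrin, a membrane protein of synaptic-type vesicles. EMP1 belongs to the PMP22 family of small tetraspan membrane proteins and is made by many epithelial and stromal cells as well as by macrophages. In fibrotic lung and liver, TREM2 and GPNMB are commonly used to mark macrophages that accumulate at scars.

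Library depth differed widely. Total counts ran from 3534193 to 18051113 in 11 libraries and came to 60598 in saline WT 2, where 3 counts are worth 32.4 CPM (a gene's share of its library's counts, on library sizes scaled by TMM to correct for composition). Bleomycin WT 4 had the lowest TMM factor, 0.579, against 0.898 or more elsewhere. Where leaving out either library moved a value by over 1.5 times, the value without it is given. Il4ra, the gene the KO label refers to, showed no drop in libraries carrying that label: it ranged from 235 to 473 CPM there, from 138 to 626 CPM in bleomycin WT and from 32.4 to 302 CPM in saline WT. The count covers the whole gene, including exons outside any deleted part. "KO" below means the libraries labelled KO, and each direction given for them rests on that label. The summed level of 10 macrophage markers was 15533 to 36645 CPM in saline WT, 33206 to 54233 CPM in bleomycin WT and 51059 to 71369.8 CPM in KO, with no marker at 0 throughout a group. Markers of other cells were present too. The sum of 8 neutrophil markers was 2677 to 28882.5 CPM in saline WT, 561 to 1606 CPM in bleomycin WT and 1159.8 to 1943 CPM in KO, and the sum of 10 lung epithelial markers was 1444 to 2342, 133 to 843 and 129.8 to 569 CPM. No marker of either list was at 0 throughout a group. The part of these other cells in the results below was not tested unless a value is given.

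In GENCODE vM21 (GRCm38) all 5 genes are protein-coding and lie on the plus strand. Gpnmb (ENSMUSG00000029816) spans chromosome 6 from 49036546 to 49070929, Trem2 (ENSMUSG00000023992) chromosome 17 from 48346401 to 48354147, and Tyrobp (ENSMUSG00000030579) chromosome 7 from 30413760 to 30417585. Syngr1 (ENSMUSG00000022415) spans chromosome 15 from 80091334 to 80119501 and Emp1 (ENSMUSG00000030208) chromosome 6 from 135362545 to 135383173. Among other annotated genes, Rpl3 alone overlapped a member. It runs antisense to the start of Syngr1 and shares 0 exonic bases with it, so Syngr1 reads are not mixed with exonic Rpl3 reads although the library kit does not mark strand.

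The stretches before the RefSeq starts are shown because 3 of these 4 genes, and Trem2 without the shallow library, stood higher after bleomycin. RefSeq sequences (GRCm38.p6) were found for 4 of the 5 genes, for Gpnmb at chr6:49036268-49036517, Trem2 at chr17:48346151-48346400, Syngr1 at chr15:80091084-80091333 and Emp1 at chr6:135362708-135362903, all on the plus strand and 5′ to 3′. Emp1 has 2 RefSeq starts. Both of its windows lie inside its GENCODE span, which begins at 135362545, so they are not upstream of that start. The stretch shown is the part of the first window that lies outside annotated exons. Capitals mark the single motif match.
Gpnmb: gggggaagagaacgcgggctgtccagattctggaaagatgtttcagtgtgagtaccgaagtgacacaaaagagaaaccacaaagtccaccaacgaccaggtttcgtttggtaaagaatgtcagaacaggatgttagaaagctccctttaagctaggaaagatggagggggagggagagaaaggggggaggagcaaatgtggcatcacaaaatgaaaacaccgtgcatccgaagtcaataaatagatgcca
Trem2: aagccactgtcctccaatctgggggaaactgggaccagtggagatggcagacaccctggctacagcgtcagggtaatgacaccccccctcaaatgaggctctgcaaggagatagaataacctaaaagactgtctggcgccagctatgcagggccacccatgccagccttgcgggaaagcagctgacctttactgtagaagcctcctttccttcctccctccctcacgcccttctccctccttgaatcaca
Syngr1: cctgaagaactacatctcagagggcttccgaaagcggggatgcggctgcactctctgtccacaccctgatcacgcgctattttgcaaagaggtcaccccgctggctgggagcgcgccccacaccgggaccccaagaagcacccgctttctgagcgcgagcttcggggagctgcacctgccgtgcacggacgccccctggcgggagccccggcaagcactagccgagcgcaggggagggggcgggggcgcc
Emp1: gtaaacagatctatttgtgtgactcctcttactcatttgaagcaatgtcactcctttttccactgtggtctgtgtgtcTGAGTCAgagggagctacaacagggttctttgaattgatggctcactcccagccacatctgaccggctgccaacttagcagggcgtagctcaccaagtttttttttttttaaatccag
Both strands of the 250 bases before each start were searched for 6 exact motifs, and the share of 32851 RefSeq windows of this length that hold each was counted. The E-box CACGTG was present in 6.02% of windows. The core of the M-box bound by MiT/TFE factors, CATGTG, was present in 12.25% of them. The AP-1 motif TGACTCA was found in 4.46% and the STAT6 motif (TTC, any 4 bases, GAA) in 5.85%. The PU.1 motif GAGGAAGT was found in 2.44%, and the TATA box TATAAA in 12.4%. The windows of Gpnmb, Trem2 and Syngr1 held 0 matches. Emp1 held 1 AP-1 match, on the minus strand, beginning 145 bases before its first RefSeq start, and no match overlapped another motif. The windows also differed in base composition. GC content was 68.4% for Syngr1, 56.0% for Trem2, 47.2% for Gpnmb and 44.4% for Emp1, around a median of 52.4% over all windows.

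Trem2, the receptor, was detected in every library. It stood at 183, 368, 95.5 and 101 CPM in saline WT 1 to 4, at 482, 427, 671 and 338 CPM in bleomycin WT 1 to 4, and at 436, 474, 494 and 481 CPM in KO 1 to 4. All 4 KO libraries lay above all 4 saline libraries, whereas bleomycin WT 4 lay below saline WT 2. That saline value rests on 34 counts, with an exact Poisson 95% interval of 255 to 514 CPM for counting error only, and the saline mean was 187 ± 127 CPM (SD, n = 4) with saline WT 2 and 127 ± 49.2 CPM (SD, n = 3) without it. Bleomycin WT averaged 479 ± 141 CPM and KO 471 ± 24.7 CPM (SD, n = 4 each). The log2 fold change against saline was 1.41 (SE 0.47) for bleomycin WT and 1.38 (SE 0.47) for KO, and 2.02 (SE 0.29) and 1.87 (SE 0.28) in a fit without saline WT 2 and bleomycin WT 4. With upper quartile scaling these were 0.11 and 0.16, where the median of all genes also moved, from 0.08 to -0.31 in the first contrast.

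Tyrobp, the adaptor, did not share that direction. It stood at 1245, 1470.1, 2774 and 1885 CPM in saline WT 1 to 4, at 1639.7, 1070.2, 1845 and 945 CPM in bleomycin WT 1 to 4, and at 1305, 1677, 1837 and 1428 CPM in KO 1 to 4. The 3 groups overlapped, and saline WT 3 was the highest library. The log2 fold change against saline was -0.42 (SE 0.37) for bleomycin WT and -0.24 (SE 0.37) for KO. Without saline WT 3 these became -0.04 and 0.15. With upper quartile scaling they were -1.21 and -0.96, where the median of all genes was -0.31 and -0.27. Tyrobp is also made by neutrophils and NK cells: the neutrophil marker sum was 2677, 3113, 28882.5 and 18209 CPM in saline WT 1 to 4, highest in the same library. The sum of 7 T and NK cell markers was 10.8 to 197 CPM in saline WT, 118 to 611 CPM in bleomycin WT and 127 to 323 CPM in KO. In bulk RNA, fewer cells of a type and less RNA per cell cannot be told apart.

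In these bulk libraries Trem2 therefore stood higher relative to Tyrobp, which neutrophils also make. Per kilobase of deposited exon length, Trem2 was 0.0170 to 0.123 of Tyrobp in saline WT, 0.145 to 0.197 in bleomycin WT and 0.133 to 0.166 in KO. All 8 bleomycin libraries lay above all 4 saline libraries, with saline WT 2 the nearest. That library's ratio rests on 34 Trem2 counts, with a counting interval of 255 to 514 CPM around 368 CPM. The upper limit would place it among the bleomycin ratios, so separation from that library is not shown. The ratio was 0.0727, 0.123, 0.0170 and 0.0265 in saline WT 1 to 4. It was lowest in saline WT 3 and 4, where the neutrophil marker sum was highest (28882.5 and 18209 CPM, against 2677 and 3113 CPM in saline WT 1 and 2). The part of neutrophils in this ratio was not tested. The mean ratio was 0.0599 ± 0.0488, 0.174 ± 0.0216 and 0.151 ± 0.0173 (SD, n = 4 each), and 0.0387 ± 0.0298 (SD, n = 3) in saline without saline WT 2. On the same per-kilobase scale Tyrobp remained the most abundant of the 5 genes in each group, at 3269 ± 1196 CPM per kb in saline WT, 2438 ± 772 in bleomycin WT and 2769 ± 426 in KO. Gpnmb relative to Trem2 was 0.0670 to 0.290 in saline WT, 0.375 to 1.37 in bleomycin WT and 0.440 to 0.847 in KO, again without overlap between saline and bleomycin.

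**Figure D1:**
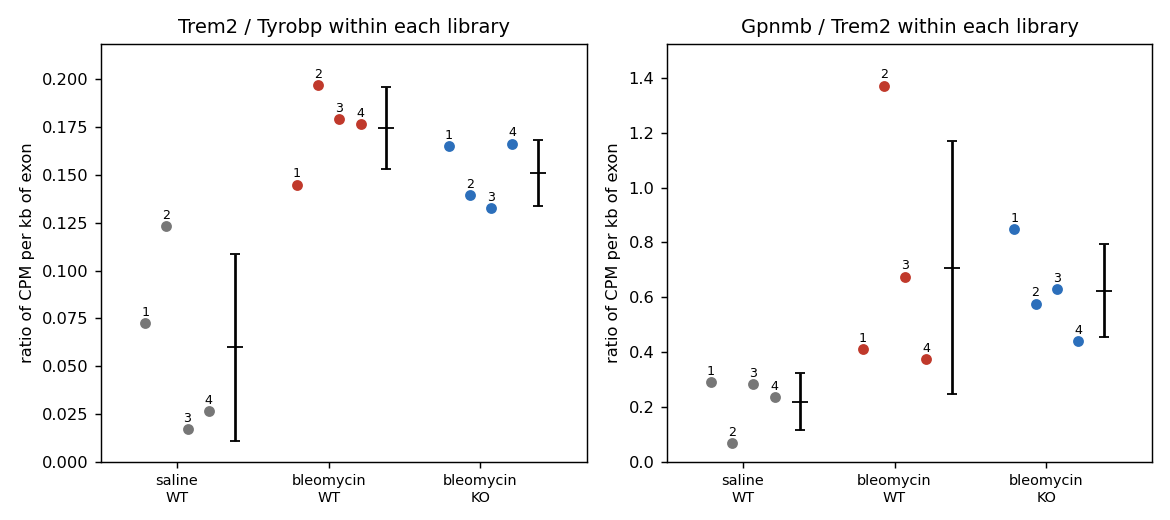
Ratios of CPM per kb of exon within each library, Trem2 to Tyrobp on the left and Gpnmb to Trem2 on the right; numbered points are libraries and the black bar is the group mean with its SD (n = 4). In both panels the bleomycin libraries sit above all saline libraries. Tyrobp is also made by neutrophils, whose part in the left panel was not tested. Saline WT 2 is the highest saline library for Trem2 to Tyrobp (0.123, on 34 Trem2 counts) and the lowest for Gpnmb to Trem2 (0.0670).

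Gpnmb stood at 210.1, 97.3, 107 and 93.7 CPM in saline WT 1 to 4, at 783, 2313, 1788 and 501 CPM in bleomycin WT 1 to 4, and at 1459.7, 1080.1, 1226 and 836 CPM in KO 1 to 4. Every bleomycin library of either genotype lay above every saline library. Bleomycin WT 4 was the lowest and bleomycin WT 2 the highest of the 8, and the KO libraries lay between them. The means were 127 ± 55.7 CPM in saline WT, 1346 ± 849 CPM in bleomycin WT and 1150.5 ± 262 CPM in KO (SD, n = 4 each). The log2 fold change against saline was 3.39 (SE 0.53) for bleomycin WT and 3.16 (SE 0.52) for KO.

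Syngr1 was close to the floor in saline libraries. It stood at 3.16, 0, 5.23 and 2.03 CPM in saline WT 1 to 4 (13, 0, 51 and 14 counts), at 103, 139, 226 and 422 CPM in bleomycin WT 1 to 4, and at 132, 131, 104 and 94.0 CPM in KO 1 to 4. The 0 in saline WT 2 allows up to 32.4 CPM (3 counts), which is still under each of the 8 bleomycin libraries. The means were 2.60 ± 2.18, 222 ± 142 and 115 ± 19.0 CPM (SD, n = 4 each), and the log2 fold change against saline was 6.04 (SE 0.69) for bleomycin WT and 5.10 (SE 0.66) for KO. Bleomycin WT 4, lowest of its group for Gpnmb, was highest for Syngr1. Without it and saline WT 2, the Syngr1 log2 fold changes were 5.44 (SE 0.44) and 5.01 (SE 0.43).

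Emp1 stood at 102, 75.7, 75.0 and 96.9 CPM in saline WT 1 to 4, at 177, 292, 579.7 and 319.9 CPM in bleomycin WT 1 to 4, and at 301, 285, 229 and 240.3 CPM in KO 1 to 4. All 8 bleomycin libraries lay above the 4 saline libraries. The means were 87.5 ± 14.2, 342 ± 170.1 and 264 ± 34.3 CPM (SD, n = 4 each), and the log2 fold change against saline was 1.95 (SE 0.45) for bleomycin WT and 1.58 (SE 0.44) for KO. Markers of cells that also make Emp1 went in different directions: the lung epithelial sum was lower in every bleomycin library than in every saline library, while the sum of 7 fibroblast markers was 55.0 to 147 CPM in saline WT, 206 to 315 CPM in bleomycin WT and 107 to 488 CPM in KO. Their part in the Emp1 level was not tested.

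**Figure D2:**
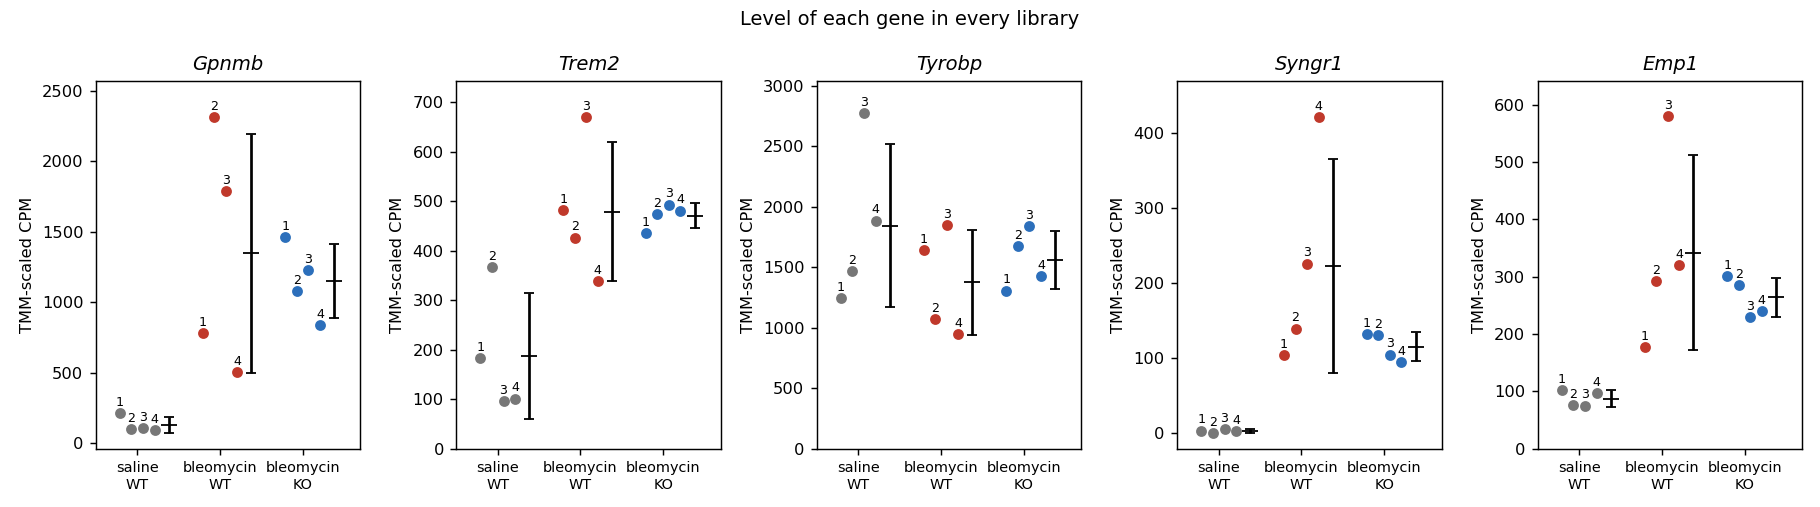
TMM-scaled CPM of each gene (one panel per gene, linear axes) in the 12 libraries; numbered points are libraries and the black bar is the group mean with its SD (n = 4). Gpnmb, Syngr1 and Emp1 separate saline from all bleomycin libraries, Trem2 does so apart from saline WT 2 (368 CPM) against bleomycin WT 4 (338 CPM), and the Tyrobp groups overlap.

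Over all genes, 4 of 16679 passed an edgeR adjusted p of 0.05 in bleomycin WT against saline WT (0.024%), and Gpnmb and Syngr1 were 2 of them. Gpnmb did not pass in 10 of 12 fits that left out 1 library, nor with RLE, upper quartile scaling, limma-voom, a replicate block or only the 2 groups, where Syngr1 did not pass either. In KO against saline WT 3 genes passed (0.018%), and Syngr1 was 1 of them. Syngr1 did not pass there in 5 of 12 fits that left out 1 library (without saline WT 1, 3 or 4 or KO 1 or 2), nor with a replicate block. The highest saline library lay below the lowest bleomycin WT library for 4.93% of genes tested and for 3 of the 5 members; the KO libraries did so for 8.17% of genes and for 4 of the 5. These contrasts share the saline libraries, and the members were picked with the levels known, so nothing is read from these counts.

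Of the 10 macrophage markers 0 passed in either contrast with saline, and 8 had a positive log2 fold change in each, beside 52.9% and 51.7% of all genes tested. Without saline WT 2 and bleomycin WT 4, Fcgr1 rose in both (log2 fold changes 1.43 and 1.45), where 0.287% and 0.377% of genes rose. The sum of the 10 macrophage markers differed between libraries, so the members were also expressed as a percentage of it. Much of that sum is Lyz2: 22902 of 36645 CPM in saline WT 1, 14487 of 33206 CPM in bleomycin WT 4 and 55533 of 71370 CPM in KO 3. The percentages therefore depend largely on that gene, and whether they follow macrophage content was not tested. Gpnmb was then 0.307% to 0.626% in saline WT, 1.48% to 4.69% in bleomycin WT and 1.64% to 2.77% in KO, still without overlap. Syngr1 lay between 0.00679% and 0.0150% in saline WT 1, 3 and 4, while bleomycin WT spanned 0.195% to 1.27% and KO 0.146% to 0.251%. The 0 in saline WT 2 allows up to 0.209% on this scale, which overlaps both bleomycin groups, so the separation from that library is not shown here. Trem2 was 0.275%, 0.339% and 0.5004% in 3 saline libraries and 2.37% in saline WT 2, against 0.866% to 1.24% in bleomycin WT and 0.692% to 0.943% in KO. Emp1 overlapped on this scale, at 0.216% to 0.487% in saline WT, 0.334% to 1.07% in bleomycin WT and 0.322% to 0.571% in KO. Tyrobp spanned 3.40% to 9.46% in saline WT, against 2.48% to 2.94% in KO, so that every KO library lay below every saline library, and 2.17% to 3.40% in bleomycin WT, where bleomycin WT 3 and saline WT 1 met.

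KO against WT among bleomycin-treated libraries was the comparison tested for the members. Their levels in the KO libraries were also known when they were picked, so these tests are not independent of that choice. No member passed the test in it. The log2 fold changes were -0.23 for Gpnmb (95% interval -1.24 to 0.79), -0.02 for Trem2 (-0.99 to 0.94), 0.18 for Tyrobp (-0.60 to 0.96), -0.95 for Syngr1 (-2.06 to 0.17) and -0.37 for Emp1 (-1.28 to 0.53). All 5 had an edgeR adjusted p of 0.9998. The libraries overlapped for every member. Exact two-sided permutation tests on log2 CPM gave p = 1 for Gpnmb, 0.857 for Trem2, 0.400 for Tyrobp, 0.143 for Syngr1 and 0.571 for Emp1, where 4 against 4 libraries allow no p below 0.0286.

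On the log2 scale Syngr1 had the widest of these intervals. Its mean ratio was the lowest, 0.518 of the WT level with a 95% interval of 0.239 to 1.12. It rested on bleomycin WT 4 in part: the log2 fold change was -0.45 without that library and -1.18 without bleomycin WT 1. The interval for Trem2 ran from 0.504 to 1.92 of the WT level. Gpnmb turned to 0.17 without bleomycin WT 2 and was -0.52 without bleomycin WT 4. Trem2 turned to 0.18 and Emp1 to 0.01 without bleomycin WT 3. Of all genes tested, 0 passed in this comparison with edgeR (0%), with DESeq2 and with limma-voom, weighted for library quality or not. An unadjusted edgeR p under 0.05 was reached by 647 genes, and chance would give 834. The KO libraries lay wholly above the WT libraries for 0.905% of genes and wholly below for 0.594%, and 0 of the 5 members was among either. The spread within KO was narrower than within WT for all 5 genes. For example, the SD was 19.0 against 142 CPM for Syngr1 and 24.7 against 141 CPM for Trem2. The share of all genes with a narrower spread in KO was not counted, and the difference in spread was not tested. Outside the members, Ptpn6, Syngr2, Spp1 and Ctsb also had a narrower spread in KO, while Ctnnb1 did not. Nothing is read from it about the members. Without bleomycin WT 4 the WT SD was 62.9 CPM for Syngr1 and 128 CPM for Trem2.

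**Figure D3:**
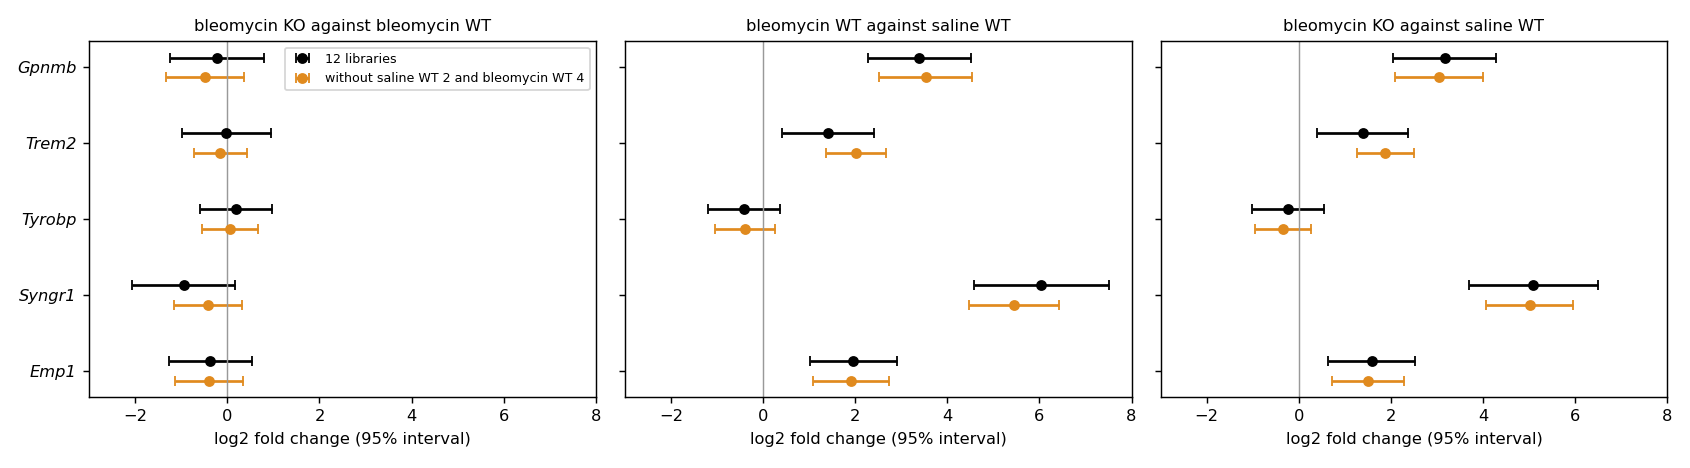
Log2 fold change of each gene with its 95% interval from edgeR, in the 3 comparisons; black is the fit of 12 libraries and orange the fit without saline WT 2 and bleomycin WT 4. In KO against WT every interval spans 0; the 2 contrasts with saline share the same saline libraries and are shown as a description.

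How the 5 genes varied together was examined over the 8 bleomycin libraries, which avoids restating the difference from saline. The points share a sort, a sequencing series and 2 groups of 4, so the correlations of log2 CPM are given as a description. Trem2 and its adaptor Tyrobp were the closest pair (Pearson r 0.839, Spearman rho 0.929), and remained close as deviations from their group means (r 0.879) and without bleomycin WT 4 (r 0.701, rho 0.893). For Trem2, 1.04% of the other genes tested had a higher r than Tyrobp. Syngr1 and Emp1 were the next pair, at r 0.611 and rho 0.881, and without bleomycin WT 4 at r 0.938 and rho 0.857. There, 0.0360% of genes had a higher r with Syngr1 than Emp1 did. Over all 8 libraries Emp1 was not among the genes nearest to Syngr1. Of 9194 other genes with a mean of at least 10 CPM, 154 had an r above 0.9 with Syngr1, against 0.611 for Emp1.

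Gpnmb and Syngr1 depended on that 1 library for their sign. Their r was -0.28 (rho 0.262) over 8 libraries and 0.700 (rho 0.893) over the 7 without bleomycin WT 4, where Syngr1 was highest and Gpnmb lowest. Gpnmb and Emp1 had r 0.400 over 8 libraries and 0.661 over 7. Gpnmb and Trem2 had r 0.506 over 8 libraries, but 0.0834 without bleomycin WT 4 and -0.82 without the 2 libraries farthest from the Trem2 median, so their relation rested on those libraries. Gpnmb and Tyrobp had r 0.218 over 8 and -0.42 over 7. Among the 10 pairs, Trem2 with Tyrobp and Syngr1 with Emp1 were the ones with an r above 0.6 in both sets of libraries.

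**Figure D4:**
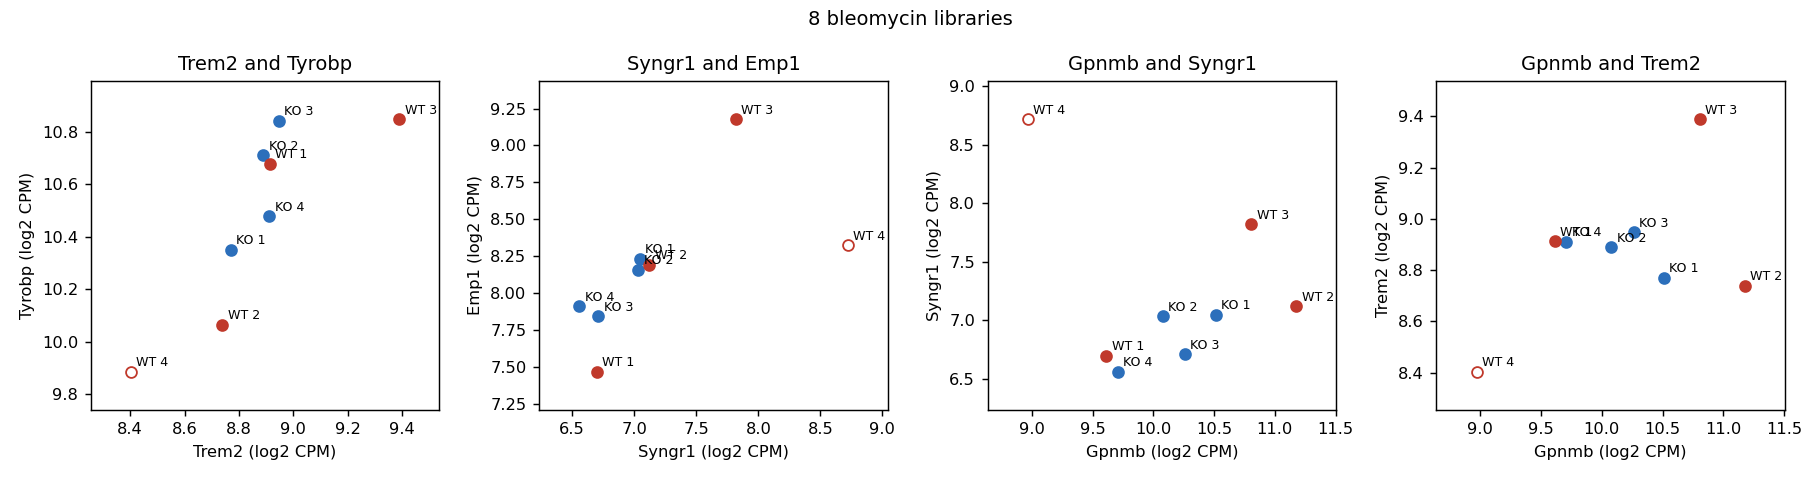
Log2 CPM of 4 pairs of genes in the 8 bleomycin libraries (red WT, blue KO; the open circle is bleomycin WT 4). Trem2 and Tyrobp run together (r 0.839), as do Syngr1 and Emp1 away from bleomycin WT 4, whereas that library alone sets the sign for Gpnmb and Syngr1.

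Of 9194 other genes with a mean of at least 10 CPM in the 8 bleomycin libraries, those named here were among the 3 most like each member by Pearson r. For Gpnmb they were Fbf1 (r 0.966) and Fut8 (0.963), a fucosyltransferase. For Trem2 they were Saa3 (0.990), an acute-phase protein, Esd (0.973) and Hmox1 (0.957), heme oxygenase 1. For Tyrobp they were 2410015M20Rik (0.992), Txn1 (0.990), thioredoxin, and Fcer1g (0.988), the Fc receptor gamma chain. For Syngr1 they were Gng12 (0.981), a G-protein gamma subunit, Timm50 (0.971) and Mxi1 (0.970). For Emp1 they were Atp6v1a (0.969), a subunit of the lysosomal proton pump, Pdia4 (0.898) and Adgre1 (0.894), which encodes the macrophage antigen F4/80. With 8 libraries many genes reach a high r by the number compared: 154 genes exceeded 0.9 with Syngr1, 89 with Tyrobp, 43 with Gpnmb, 21 with Trem2 and 1 with Emp1. None of these named neighbours is another member. Without bleomycin WT 4, the r of these named genes ran from 0.893 to 0.989.

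The signalling genes downstream of TREM2 and TYROBP did not pass the test. Of 17 measured, 0 passed in any of the 3 comparisons. Their median log2 fold change was 0.15 in bleomycin WT against saline WT, beside 0.08 over all genes, and -0.06 in KO against bleomycin WT, beside -0.01. The most abundant were Ptpn6, the phosphatase SHP-1, at 493 ± 280 CPM in saline WT, 378 ± 224 CPM in bleomycin WT and 482 ± 10.9 CPM in KO; Ctnnb1, beta-catenin, at 214 ± 181, 456 ± 82.5 and 437 ± 84.5 CPM; and Syk at 277 ± 273, 265 ± 202 and 303 ± 103 CPM (SD, n = 4 each). Without saline WT 2 and bleomycin WT 4 the adaptor Lat2 rose in both contrasts with saline (log2 fold changes 1.20 and 1.27), where 0.287% and 0.377% of genes rose; it is named after its values were seen.

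Of 12 measured TREM family members and other receptors that pair with TYROBP, 0 passed in any comparison. In bleomycin WT against saline WT 10 had a negative and 2 a positive log2 fold change, where 52.9% of all genes tested had a positive one. The median was -1.30, beside 0.08 over all genes. Of the 12, 1 gene lay wholly below and 1 wholly above saline, beside 0.929% and 4.93% of all genes tested. Trem1, which amplifies inflammatory signals, was 801 ± 817 CPM in saline WT, 201 ± 30.9 CPM in bleomycin WT and 238 ± 70.6 CPM in KO. Cd300ld was 622 ± 524, 246 ± 101 and 253 ± 16.9 CPM, whereas Cd300c2 was 128 ± 78.0, 225 ± 50.7 and 248 ± 21.1 CPM (SD, n = 4 each). Without saline WT 2 and bleomycin WT 4, Trem3 and Treml4 fell in bleomycin WT (log2 fold changes -3.29 and -3.75), where 0.144% of genes fell, and in KO, where Cd300lb fell too (-1.42) and 0.266% of genes fell. Trem1 and Trem3 are also made by neutrophils, whose marker sums were likewise lower after bleomycin. Their part was not tested.

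Among ligands, shedding enzymes and co-receptors of TREM2, 0 of 13 passed in the 12 libraries. Apoe, a lipoprotein ligand of TREM2, was 8634 ± 3634 CPM in saline WT, 29445 ± 7340.1 CPM in bleomycin WT and 27913 ± 4496 CPM in KO (SD, n = 4 each), with all 8 bleomycin libraries above all saline libraries. It rose in both contrasts without saline WT 2 and bleomycin WT 4 (log2 fold changes 1.67 and 1.47, edgeR adjusted p 0.0314 and 0.0374). Lgals3, galectin-3, was 1459 ± 143, 3699 ± 2236 and 2596 ± 253 CPM, and Ms4a6d 149 ± 99.5, 604 ± 223 and 491 ± 30.2 CPM. The median log2 fold change of the list was 0.98 in bleomycin WT and 0.66 in KO, beside 0.08 and 0.04 over all genes.

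The MiT/TFE factors, the folliculin complex that restrains them and binding partners of GPNMB included several genes that stood apart in bleomycin WT 4. Of 11 measured, 0 passed in any comparison, and the median log2 fold change was 1.58 in bleomycin WT against saline WT but 0.12 without saline WT 2 and bleomycin WT 4. Sdc4, syndecan-4, a cell-surface partner of GPNMB, was 4199 CPM in bleomycin WT 4 and 167 to 249 CPM in the other bleomycin WT libraries. Fnip1, a partner of folliculin, was 1378 CPM there and 60.9 to 70.4 CPM in the others, and Mitf was 573 CPM there and 24.9 to 46.7 CPM in the others (both named after their values were seen). Rragc, a Rag GTPase, was 825 CPM there and 206 to 349 CPM in the others, and Cd44 1689 and 561 to 653 CPM. In KO, Sdc4 was 195 to 296 CPM, Fnip1 30.4 to 78.7 CPM and Mitf 18.9 to 44.4 CPM. Bleomycin WT 4, which held the highest Mitf level of the 12 libraries, held the lowest Gpnmb level of the 8 bleomycin libraries. The other factors, also named after their values were seen, did not all follow Mitf there. Tfec was highest of the 8 bleomycin libraries, at 218 CPM, but Tfe3 and Tfeb were lowest, at 10.5 and 24.2 CPM. A relation of these factors to Gpnmb was not tested.

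The paralogs of the members did not pass in any comparison. Of 10 listed, 8 had enough counts to be tested. Syngr2 was 282 ± 94.2 CPM in saline WT, 423 ± 128 CPM in bleomycin WT and 383 ± 28.3 CPM in KO, while Syngr3, Syngr4, Syp and Pmel, the paralog of Gpnmb, had group means of at most 3.21 CPM. Sypl was 80.1 ± 59.3, 105 ± 48.3 and 126 ± 14.9 CPM. Of the family of Emp1, Emp3 was 316 ± 98.4, 547 ± 239 and 411 ± 56.7 CPM, Pmp22 was 169 ± 139, 346 ± 252 and 216 ± 61.0 CPM, and Emp2 was 61.0 ± 22.8, 11.1 ± 6.65 and 18.4 ± 5.95 CPM, with every bleomycin library below every saline library. Hcst, the DAP10 adaptor, was likewise lower in every bleomycin library (73.8 ± 15.99, 36.6 ± 10.6 and 41.5 ± 4.07 CPM; SD, n = 4 each). Pmp22 rested on saline WT 2 (0 CPM) and bleomycin WT 4 (711 CPM): without them saline WT averaged 225 ± 100.3 CPM and bleomycin WT 224 ± 81.0 CPM (SD, n = 3 each), with a log2 fold change of -0.04. Pmel in bleomycin WT was 2.38 CPM with bleomycin WT 4 and 1.34 CPM without it. All bleomycin WT libraries lay below all saline libraries for 0.929% of genes tested, and all KO libraries for 1.04%.

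Other genes used to mark scar- and lipid-associated macrophages stood higher after bleomycin. Of 24 measured, 1 rose and 0 fell in each contrast with saline, and 23 were higher and 1 lower in bleomycin WT. In KO 21 were higher and 3 lower. For 12 of the 24 the bleomycin WT libraries all exceeded the saline libraries, beside 4.93% of all genes, and for 18 the KO libraries did, beside 8.17%. The median log2 fold change was 1.48 in bleomycin WT and 1.14 in KO, beside 0.08 and 0.04 over all genes. The gene that passed was Spp1, which encodes osteopontin, at 511 ± 447 CPM in saline WT, 13480.2 ± 10942 CPM in bleomycin WT and 11679.5 ± 1527 CPM in KO (SD, n = 4 each; edgeR adjusted p 0.0433 and 0.0437). With RLE or upper quartile scaling the 1 gene that passed was Syngr1, so Spp1 did not pass there. Ctsb, the protease cathepsin B, was 2639 ± 1164, 9965 ± 2306 and 9365 ± 681 CPM. Without saline WT 2 and bleomycin WT 4, 6 of the 24 rose in bleomycin WT (Spp1, Fabp5, Ctsb, Ctsd, Apoe and Mmp14), where 0.287% of all genes rose, and these 6 with Cd63 and Mmp12 rose in KO, where 0.377% did. In KO against bleomycin WT 0 of the 24 passed, with a median of -0.10. This list was drawn up with earlier results of these data known, so its direction is not independent evidence.

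**Figure D5:**
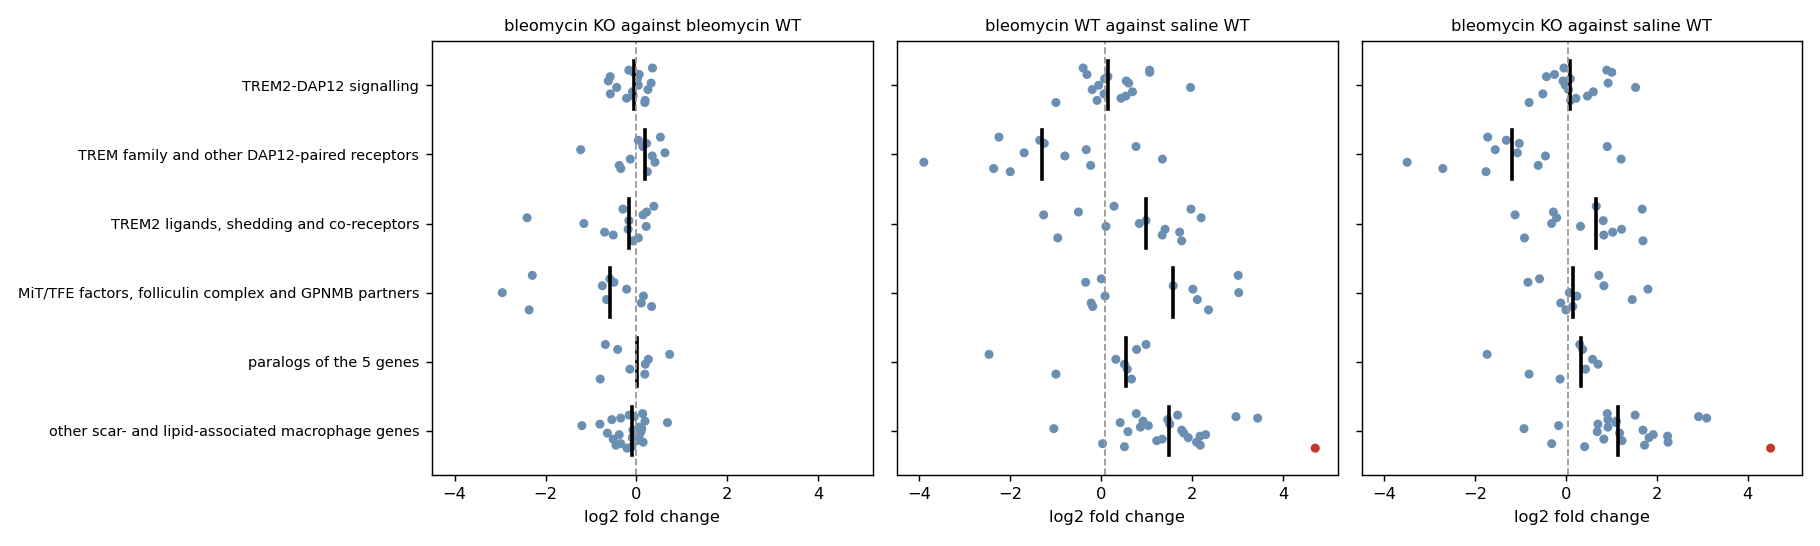
Log2 fold changes of the genes in 6 lists in the 3 comparisons; each point is a gene (red where the edgeR adjusted p is under 0.05), black bars are list medians and the dashed line is the median of all genes tested. Spp1 is the red point in both contrasts with saline, and the KO against bleomycin WT medians lie between -0.58 and 0.18, the lowest being the MiT/TFE list, at -0.10 without saline WT 2 and bleomycin WT 4.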

How the data were processed

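RNA was made into cDNA with a SMART-Seq low-input kit and Nextera XT libraries, per the labels' protocols, a chemistry that does not mark strand. The authors deposited whole-number read counts per Ensembl gene. GSNAP, limma and Partek, with builds GRCm38 and mm10, are named without a role in the submitters' processing notes, and no counter is named there. Exonic sizes used for CPM per kb are other deposited values of the authors. All 12 libraries were fitted together with edgeR 4.0.16 (R 4.3.3; expression filter, TMM, robust quasi-likelihood test, Benjamini-Hochberg adjustment over 16679 genes, threshold 0.05). Log2 CPM used a prior count of 2. DESeq2 1.42.0, limma 3.58.1, other scalings, no filter, a replicate block and left-out libraries were alternatives. Members and gene lists were chosen with earlier results of these data known. Genes named from a list were its 3 most abundant, any that passed, every paralog, and the 3 nearest to each member by r, of which 1 is not reported here. Tested on simulated data for bleomycin KO against bleomycin WT (16679 genes), the fit recovered 74 of 100 genes changed 16-fold and 8 of 100 changed 4-fold.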

Additional observations from a re-analysis of the deposited data

Results flagged for a closer look

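In each group of 4, the gap between an extreme library and its neighbour was compared with the group's range (Dixon's ratio, at its 95% critical value). Of 126 groups examined 13 passed. Chance alone passes about 5% of independent groups, but members entered as CPM, as ratios and as percentages. Mitf, Tfe3, Tfeb, Tfec, Fnip1 and Lat2 were included after their values were seen. The count is therefore not set against chance. Among the members, Gpnmb was 210.1 CPM in saline WT 1 and 93.7 to 107 CPM in the other saline libraries, and Trem2 was 2.37% of the macrophage marker sum in saline WT 2 and 0.275% to 0.5004% in the others. Bleomycin WT 4 stood above the rest of its group for Mitf (573 CPM), Tfec (218 CPM), Fnip1 (1378 CPM), Cd44 (1689 CPM), Sdc4 (4199 CPM) and Pmel (5.51 CPM). Saline WT 2 stood apart for Mitf, at 141 CPM above the others, and for Rragc, at 54.0 CPM below them, each on few counts. Lgals3 was 2219 CPM in bleomycin KO 1 and 2693 to 2764 CPM in the other KO libraries. Syngr4 was found in 1 saline library (saline WT 3, 0.308 CPM) and 1 bleomycin WT library (bleomycin WT 1, 0.0999 CPM) and was at 0 in the rest of those groups. A single library above 0 in a group otherwise at 0 passes at any level.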

How the results depend on the processing

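In KO against bleomycin WT 0 genes and 0 members passed in every alternative but the fit without a filter on low counts, where 243 genes and 0 members passed. Leaving out 1 library at a time, the log2 fold change ran from -0.52 to 0.17 for Gpnmb, -0.17 to 0.18 for Trem2, 0.03 to 0.36 for Tyrobp, -1.18 to -0.45 for Syngr1 and -0.59 to 0.01 for Emp1. In bleomycin WT against saline WT, 4 genes passed, 2 of them members. The count of genes was 1 with RLE, 1 with upper quartile scaling, 512 with DESeq2, 319 with limma-voom and quality weights, 780 without the filter, 81 without saline WT 2 and bleomycin WT 4, 0 with only the 2 groups compared, and 1 to 11 leaving out 1 library. Members that passed numbered 3 with DESeq2 (adding Emp1), quality weights or without saline WT 2 and bleomycin WT 4 (both adding Trem2), 2 without the filter, 1 with RLE, upper quartile scaling or limma-voom (Syngr1, Gpnmb being lost), 0 with only the 2 groups, and 1 to 2 leaving out 1 library. In KO against saline WT, 3 genes passed, 1 of them a member. The count of genes was 1 with RLE, upper quartile scaling or only the 2 groups, 370.0 with DESeq2, 12 with limma-voom, 232 with quality weights, 694 without the filter, 121 without saline WT 2 and bleomycin WT 4, and 0 to 18 leaving out 1 library. Members that passed numbered 2 with DESeq2 or without the filter, 3 with quality weights or without those libraries, and 0 to 2 leaving out 1 library. The cause was not tested, and nothing is read from the members that passed against saline.

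Replicate numbers did not pair the libraries: same-numbered libraries correlated at -0.20 to 0.07 in their deviations and 0 matched their own number best. With the replicate block, 2 genes (1 member) passed in bleomycin WT against saline WT, 1 gene (0 members) in KO against saline WT and 0 in KO against bleomycin WT. Depth limits saline WT 2, where 3 counts are worth 32.4 CPM.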
